A study of Mus musculus with 6 samples.

Results

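The genes described here are 8 markers of Schwann cells and of the sustentacular cells of the adrenal medulla, compared between wild-type and Armc5 knockout adrenal glands of the mouse. They were found by symbol in the table of read counts, where each of the 8 matched 1 locus out of 53103 named loci. Foxd3, Sox10, Erbb3, S100b, Ngfr, Gfap and Fabp7 were taken as precursor and non-myelinating genes, and Mbp as the myelin gene. RNA was sequenced from whole adrenal glands; the mice were female, 30 weeks old and of a 129 sv X CD1 background. The WT group holds 3 libraries and the knockout group, with the genotype Armc5(-/-) and called KO here, holds 3. The labels name neither the deleted part of Armc5 nor a promoter or Cre driver, and leave unsaid if every library is its own animal, so that a p-value reflects only how far these libraries vary, which may be technical.

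Schwann cells are the glia of peripheral nerves and arise from the neural crest by way of Schwann cell precursors. The precursors travel along nerves and give rise to myelinating and non-myelinating Schwann cells, and in the embryo to many of the chromaffin cells that make catecholamines in the adrenal medulla. Sustentacular cells are glia-like cells that wrap chromaffin cells and, like non-myelinating Schwann cells, are known by S100b and Sox10 and contain no myelin. Neuregulin from axons acts through the ErbB receptors to keep precursors alive and to drive myelin formation.

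The libraries held 70547288 to 130573434 counts. Armc5 fell 7.47-fold, from 26.8 ± 1.35 to 3.59 ± 0.0632 CPM, read counts scaled to library size (SD, n = 3 per group; edgeR quasi-likelihood test, adjusted p = 0.00041), as the labels have it. WT replicate 2 stood apart in Sox10, with 3.24 CPM against 1.17 in each of the other WT libraries, and had the highest WT value of Mbp, Erbb3, Gfap and Fabp7. KO replicate 3 held 295610 counts of Alb, the albumin gene of liver, against at most 1289 in any other library. Results are therefore given with and without these libraries where that matters. Chromaffin markers were present in every library (summed level of 10 genes 1951 to 2774 CPM in WT and 3983 to 4393 in KO), as were cortical markers (5 genes, 14387 to 24007 in WT and 9449 to 11729 in KO, none called by edgeR, with 2 at an unadjusted p under 0.05, and 2 lower by DESeq2 and by limma-voom). Of 6 markers of central nervous system glia, Mog, Opalin and Olig2 had no count in any library, and the 6 together reached 0.836 to 1.26 CPM in WT and 0.887 to 2.13 in KO.

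In TMM-scaled CPM, Fabp7, Foxd3, S100b and Gfap were lower in every KO library than in every WT library. The groups overlapped for Erbb3, Ngfr, Mbp and Sox10, of which Erbb3 and Ngfr had higher means in KO. None of the 8 was called at an adjusted p under 0.05 (edgeR, adjusted over all 21358 loci tested), a threshold that 1.84% of the tested loci passed. Before adjustment, 4 members lower in KO and 2 higher had a p under 0.05, where the share over all tested loci was 9.73% lower and 12.5% higher. With total counts alone in place of TMM scaling, 2 members lower in KO (Fabp7 and Foxd3) and 2 higher had such a p, where the share over all loci was 2.36% lower and 22.3% higher. The 4 members without overlap between the groups were all lower, and 14.2% of the tested loci were lower without overlap. Over the 8 members the median log2 fold change was -0.65, against -0.0063 over all tested loci. The members were chosen with earlier results of these data known, so these comparisons describe them and test nothing about the list. All 8 passed the filter on low counts, although Fabp7, Foxd3, S100b and Sox10 had as few as 14, 22, 24 and 78 counts in a library, where counting error adds to the spread. In whole glands, fewer cells of a type and less RNA per cell cannot be told apart.

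**Figure D1:**
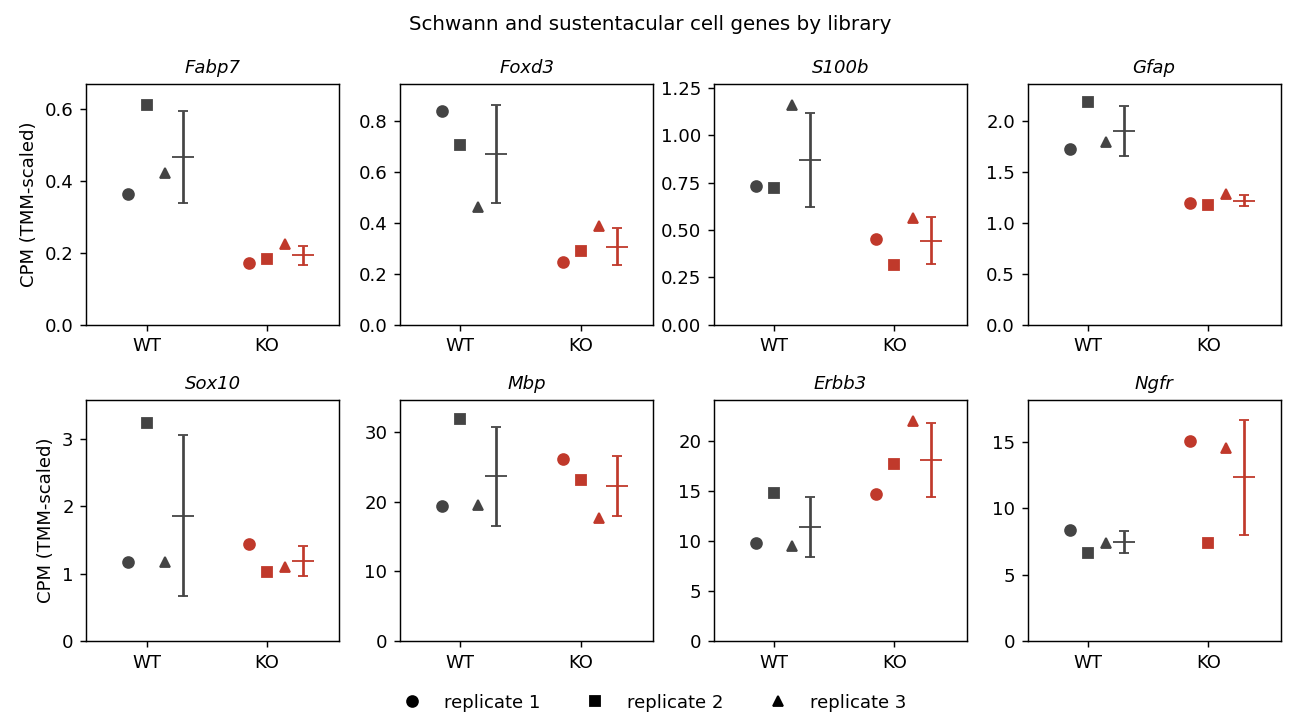
Level of the 8 genes in each library, in TMM-scaled CPM on a linear axis from 0; symbols mark the replicate number and bars the mean ± SD (n = 3). Fabp7, Foxd3, S100b and Gfap lie lower in all 3 KO libraries, and WT replicate 2 is the high WT point of Sox10 at 3.24 CPM.

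Upstream sequence is shown for the 4 members that lay lower in KO and for Ngfr, which did not. Whether these sequences bear on that difference was not tested. RefSeq windows on GRCm38.p6 were found for 5 of the 8 members and not for Sox10, Erbb3 and Mbp. Each line runs 5′ to 3′ on the gene's strand and ends before the first transcribed base. Bases between that point and the RefSeq start were dropped, so the Fabp7 and Ngfr lines hold 208 and 213 bases and the others 250. Capitals mark matches, on either strand, to the SOX half-sites ACAAAG or ACAATG, the CCAAT box (CCAAT), the GC box (CCGCCC) and the TATA box (TATAAA). The windows are chr10:57784673-57784880 for Fabp7, chr4:99656049-99656298 for Foxd3 and chr10:76253586-76253835 for S100b on the plus strand, and chr11:102897201-102897450 for Gfap and chr11:95587736-95587948 for Ngfr on the minus strand.
Fabp7: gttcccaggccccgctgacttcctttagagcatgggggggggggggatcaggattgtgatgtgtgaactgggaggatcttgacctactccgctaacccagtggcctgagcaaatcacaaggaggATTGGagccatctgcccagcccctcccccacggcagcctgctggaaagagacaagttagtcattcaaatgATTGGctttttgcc
Foxd3: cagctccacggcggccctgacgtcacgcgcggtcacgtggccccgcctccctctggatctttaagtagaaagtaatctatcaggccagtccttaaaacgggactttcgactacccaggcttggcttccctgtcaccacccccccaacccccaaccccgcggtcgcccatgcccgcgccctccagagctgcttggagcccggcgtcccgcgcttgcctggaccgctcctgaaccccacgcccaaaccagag
S100b: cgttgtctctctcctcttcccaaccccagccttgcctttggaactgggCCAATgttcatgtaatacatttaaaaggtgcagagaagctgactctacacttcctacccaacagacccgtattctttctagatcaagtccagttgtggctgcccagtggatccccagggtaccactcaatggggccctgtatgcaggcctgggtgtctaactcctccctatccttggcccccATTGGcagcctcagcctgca
Gfap: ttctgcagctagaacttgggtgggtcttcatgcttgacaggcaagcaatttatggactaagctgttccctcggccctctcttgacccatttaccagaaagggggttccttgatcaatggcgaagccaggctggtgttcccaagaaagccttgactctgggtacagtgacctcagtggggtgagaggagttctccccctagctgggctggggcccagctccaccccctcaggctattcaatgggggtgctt
Ngfr: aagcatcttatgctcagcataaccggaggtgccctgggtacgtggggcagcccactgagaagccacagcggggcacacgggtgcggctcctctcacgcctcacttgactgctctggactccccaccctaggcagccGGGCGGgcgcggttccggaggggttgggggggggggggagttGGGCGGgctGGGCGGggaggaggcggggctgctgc
CCAAT matched in Fabp7, 126 and 56 bases before the RefSeq start, and in S100b, 202 and 20 bases before it, and 33.8% of 32851 promoter windows of 250 bases hold a match. The GC box matched 3 times in Ngfr, whose window was 70.9% G and C, and 32.7% of the windows hold it. No SOX half-site lay in these 5 windows, against 25.2% of all windows with either one, and no TATA box, against 12.4%. These shares are of full windows of 250 bases, longer than those of Fabp7 and Ngfr. The matches are letters in the window only, and the Gfap window belongs to a start inside the locus, which extends further upstream.

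Fabp7 encodes a fatty acid binding protein of radial glia and Schwann cell precursors. It had 37, 79 and 34 counts in WT and 19, 14 and 29 in KO, which is 0.365, 0.611 and 0.424 CPM against 0.172, 0.184 and 0.224. The highest KO library lay below the lowest WT library. Its mean level went from 0.467 ± 0.129 to 0.193 ± 0.0273 CPM (SD, n = 3 per group). This is 2.41-fold lower, or -1.27 on the log2 scale (SE 0.33, edgeR adjusted p = 0.101, unadjusted 0.00751). The locus (GRCm38 chromosome 10, 57784881 to 57788450) overlaps no other locus of the table.

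Foxd3 is a forkhead transcription factor of the neural crest and of early Schwann cell precursors. Its counts were 85, 91 and 37 in WT and 27, 22 and 50 in KO, or 0.839, 0.704 and 0.461 CPM against 0.244, 0.289 and 0.386. WT replicate 3 came nearest to the KO libraries, without reaching them. The log2 fold change was -1.12 (SE 0.34), 2.17-fold lower (edgeR adjusted p = 0.135, unadjusted 0.0148). This gene lies on chromosome 4, 99656299 to 99658622.

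S100b is the calcium-binding protein by which Schwann and sustentacular cells are usually stained. WT libraries had 74, 93 and 93 counts and KO libraries 50, 24 and 73, so that the levels were 0.731, 0.72 and 1.16 CPM against 0.453, 0.315 and 0.564. The raw counts of KO replicate 3 and WT replicate 1 were nearly equal, and the scaled levels did not overlap. KO was 1.94-fold lower, or -0.96 on the log2 scale (SE 0.34, edgeR adjusted p = 0.173, unadjusted 0.0268). The 3′ part of S100b (chromosome 10, 76253853 to 76261159) overlaps Dip2a on the other strand, which had 3738 to 6006 counts. Whether the counting used strand is not given in the sources used here, so reads of the overlap may not be told apart.

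Gfap, the intermediate filament of astrocytes and of non-myelinating Schwann cells, stood at 1.73, 2.18 and 1.79 CPM in WT and 1.19, 1.18 and 1.28 in KO. The KO libraries were close together and all under the WT range. Its level went from 1.9 ± 0.246 to 1.22 ± 0.055 CPM (SD, n = 3 per group), or by -0.64 on the log2 scale (SE 0.19, edgeR adjusted p = 0.132, unadjusted 0.0138). The locus spans 102887336 to 102900912 of chromosome 11. DESeq2, which called 12.3% of all loci, called Fabp7 (adjusted p = 0.0415) and Gfap (0.0289), both lower, and no other member; limma-voom with sample weights, which called 7.04% of all loci, called no member. With total counts alone or equal Rn7sk counts the 4 log2 fold changes stayed negative, from -1.07 to -0.42. Fabp7 and Foxd3 kept an edgeR unadjusted p under 0.05 with both. Gfap (0.109 with total counts, 0.124 with Rn7sk counts) and S100b (0.0679 and 0.0992) did not. The lack of overlap in level was read from TMM-scaled CPM alone.

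Sox10 is the transcription factor that all Schwann cells and sustentacular cells need, and it acts on the genes of myelin. It had 119, 419 and 94 counts in WT and 160, 78 and 142 in KO, or 1.17, 3.24 and 1.17 CPM against 1.45, 1.02 and 1.1. Apart from WT replicate 2 the libraries of both groups lay between 1.02 and 1.45 CPM. The log2 fold change was -0.65 (SE 0.45, edgeR adjusted p = 0.439), and without WT replicate 2 it was 0.039 (edgeR adjusted p = 0.944), so that the sign rests on this library. The gene (chromosome 15, 79154908 to 79165863) lies within the span of the Eif3l locus on the other strand, which had 7940 to 15539 counts, and the limit on overlapping reads given for S100b applies.

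Mbp, myelin basic protein, compacts the myelin sheath; the same locus also makes the golli transcripts, which are known from immune cells and are not separated in these counts. Its level was 19.4, 31.8 and 19.6 CPM in WT and 26.2, 23.0 and 17.7 in KO. The groups overlapped throughout. The log2 fold change was -0.08 (SE 0.24, edgeR adjusted p = 0.875), and it turned to 0.21 without WT replicate 2, to 0.059 without KO replicate 3, to 0.12 with total counts alone, to 0.096 with equal Rn7sk counts and to 0.031 by limma-voom with sample weights. Mbp is on chromosome 18, 82475146 to 82585637.

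Erbb3, the receptor by which Schwann cells bind neuregulin, was at 9.81, 14.9 and 9.58 CPM in WT and 14.7, 17.7 and 22.1 in KO. WT replicate 2 slightly exceeded KO replicate 1, and otherwise KO was higher. The log2 fold change was 0.67 (SE 0.23, edgeR adjusted p = 0.168, unadjusted 0.0252). KO replicate 3, the library with Alb, held the highest value, and without it the log2 fold change was 0.51 (edgeR adjusted p = 0.348). The part of liver RNA in that value was not tested. The locus spans 128567523 to 128589652 of chromosome 10.

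Ngfr, the p75 receptor of the neurotrophins, marks immature and non-myelinating Schwann cells and also neurons. It was at 8.34, 6.66 and 7.36 CPM in WT and at 15.1, 7.38 and 14.6 in KO. KO replicates 1 and 3 stood well above WT, while KO replicate 2 lay within the WT range. The log2 fold change, 0.73 (SE 0.28, edgeR adjusted p = 0.205, unadjusted 0.04), was 0.99 without KO replicate 2 and 0.56 without KO replicate 1. The gene is on chromosome 11, 95568818 to 95587735.

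**Figure D2:**
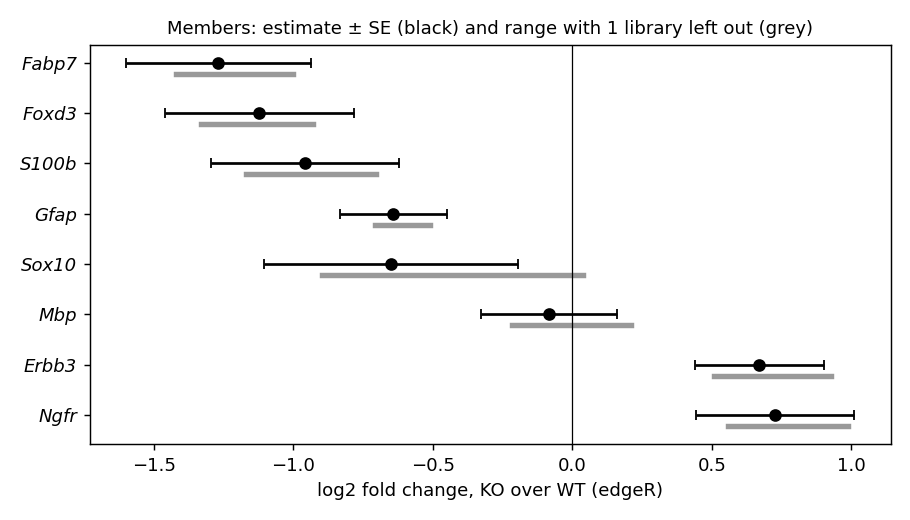
Log2 fold change of each member, KO over WT, with its SE (black) and the range of estimates when each of the 6 libraries was left out in turn (grey). The grey ranges of Fabp7, Foxd3, S100b and Gfap stay negative, those of Erbb3 and Ngfr stay positive, and those of Sox10 and Mbp cross 0.

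When 1 library was left out, the log2 fold change ranged from -1.42 to -1.001 for Fabp7, from -1.33 to -0.93 for Foxd3, from -1.17 to -0.70 for S100b and from -0.71 to -0.51 for Gfap. The ranges were 0.51 to 0.93 for Erbb3 and 0.56 to 0.99 for Ngfr. No member was called in any of these 6 edgeR fits, of which the one without WT replicate 2 called the largest share of all loci, 2.95%. An unadjusted p under 0.05 was kept by Fabp7 and Gfap in 6 of the 6 fits, by Foxd3 in 5, by S100b in 3, by Erbb3 in 2 and by Ngfr in 1.

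Levels were also divided by the gene length in the deposited table, which for Mbp was 8469 bases, less than the span of its locus. By this measure Mbp had the highest WT level, 2.79 ± 0.839 CPM per kilobase (SD, n = 3). Ngfr followed at 2.16 ± 0.245 and Erbb3 at 1.90 ± 0.495. These 3 neighbours did not differ beyond their spread. A lower tier held S100b (0.586 ± 0.169 CPM per kilobase), Sox10 (0.536 ± 0.344), Gfap (0.451 ± 0.0582), Fabp7 (0.373 ± 0.103) and Foxd3 (0.288 ± 0.0825). The SD ranges of neighbours in this order overlapped. In KO the order per kilobase was Ngfr (3.58 ± 1.25), Erbb3 (3.02 ± 0.615) and Mbp (2.63 ± 0.507), then Sox10, S100b, Gfap, Fabp7 and, lowest, Foxd3 at 0.132 ± 0.0312.

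Mbp was set against Sox10 within each library by the ratio of their counts, which does not depend on library scaling. Myelinating Schwann cells also need Sox10, and Mbp counts may include golli transcripts, so this ratio does not measure myelin against precursor RNA. The ratio was 16.6, 9.81 and 16.7 in WT and 18.1, 22.5 and 16.1 in KO. WT replicate 2, with its high Sox10, gave the lowest ratio, and the groups overlapped. The mean log2 ratio was higher by 0.42 in KO (exact two-sided permutation test over the 6 libraries, p = 0.3, where 3 against 3 cannot go below 0.1), and by 0.17 without WT replicate 2 (exact permutation p = 0.6). Taken per Sox10 count, the median locus of the table differed by 0.48 on the log2 scale, and by -0.0076 without WT replicate 2. Measured the same way against Sox10, the other members differed among themselves. Erbb3 per Sox10 count was 8.35, 4.58 and 8.18 in WT and 10.2, 17.3 and 20.1 in KO, and Ngfr per Sox10 count was 7.10, 2.05 and 6.29 against 10.4, 7.22 and 13.3. Both of these were higher in every KO library, as were 17.7% of all tested loci per Sox10 count, whereas Fabp7, Foxd3, S100b and Gfap per Sox10 count overlapped between the groups.

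The medulla holds both the glia and the chromaffin cells they wrap, and the chromaffin gene Dbh, which encodes the enzyme that makes noradrenaline, rose 1.73-fold, from 344 ± 49 CPM in WT to 594 ± 16.7 in KO (SD, 3 libraries each, edgeR adjusted p = 0.0464). This call held without WT replicate 2 (edgeR adjusted p = 0.0398) and was lost without any 1 of the other 5 libraries (0.0626 to 0.185). Because Dbh was higher in KO, most loci were lower per Dbh count: the groups did not overlap, with KO lower, for 59.1% of all tested loci, and the median locus was 1.75-fold lower (log2 difference -0.81). The ratios of the members are a description to be read against these values. Sox10 had 3.27, 8.45 and 4.05 counts per 1000 Dbh counts in WT and 2.41, 1.68 and 1.91 in KO. Every KO library lay below every WT library, a mean 2.44-fold difference in the ratio (log2 difference -1.28, exact two-sided permutation test, p = 0.1, the smallest that 3 against 3 can give). Without WT replicate 2 the log2 difference was -0.88 (exact permutation p = 0.1, the smallest possible), against -0.89 for the median locus, and 65.8% of loci were then lower without overlap. Mbp had 54.1, 82.9 and 67.7 counts per 1000 Dbh counts in WT and 43.6, 37.9 and 30.7 in KO, again without overlap, and its log2 difference of -0.86 was close to that of the median locus. Fabp7 per 1000 Dbh counts was 4.13-fold lower in KO, Foxd3 3.75-fold, S100b 3.42-fold and Gfap 2.70-fold, each without overlap. Erbb3 and Ngfr kept no such gap, with 27.3 to 38.7 and 17.4 to 25.5 counts per 1000 Dbh counts in WT and 24.5 to 38.4 and 12.2 to 25.3 in KO. Of the 8 members, 6 were thus lower without overlap. These ratios share the Dbh counts, so the level of Dbh enters each of them.

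**Figure D3:**
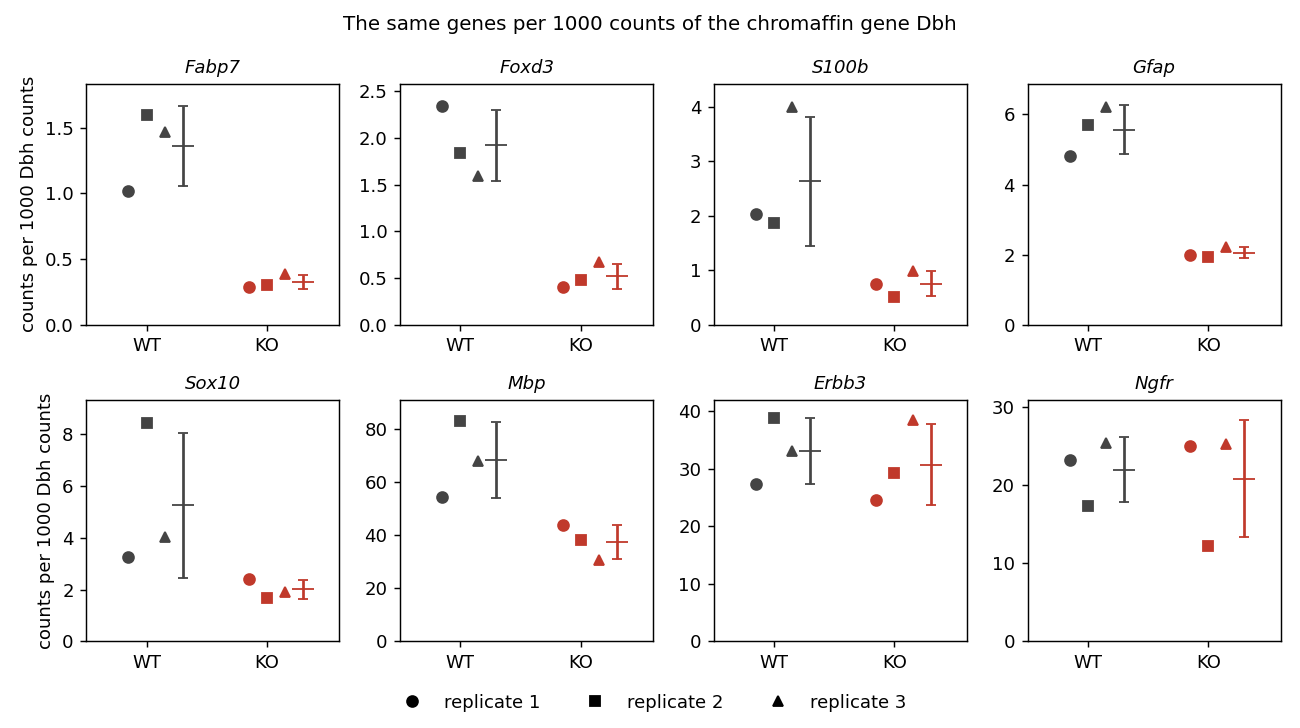
The 8 genes as counts per 1000 Dbh counts in each library, on linear axes from 0, with the replicate number as symbol and the mean ± SD (n = 3) beside. Sox10, Mbp, Fabp7, Foxd3, S100b and Gfap lie lower in all KO libraries, as do 59.1% of all tested loci, while Erbb3 (24.5 to 38.4 in KO) and Ngfr overlap with WT.

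Of 17 other genes of myelin, 15 were tested, none was called by edgeR and their median log2 fold change was -0.05. At an unadjusted p under 0.05 there were 2 lower and 1 higher, and DESeq2 called 1 of the 15, lower in KO, and limma-voom none. Pmp22, a tetraspan protein of myelin also made by many other cells, was at 102 ± 29.2 and 82.8 ± 16.3 CPM, and Mag, which joins the sheath to the axon, at 0.43 ± 0.186 and 0.301 ± 0.0466. Egr2, the transcription factor that starts the myelin programme and that many other cells also make, was at 4.20, 8.71 and 5.20 CPM in WT and 2.63, 3.67 and 3.70 in KO (log2 fold change -0.86, SE 0.31, edgeR adjusted p = 0.184, unadjusted 0.0309). WT replicate 2 was its highest library, and without it the log2 fold change was -0.48 (edgeR adjusted p = 0.29). Gjb1, the connexin of Schwann cell myelin and of liver, had 2836 counts in KO replicate 3 and at most 14 in any other library, and without that library its log2 fold change was -0.0023.

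Among 13 other genes of precursors and non-myelinating Schwann cells, Sox2, L1cam and Dhh shared a locus with another gene and were left out, and of the remaining 10 Pax3 did not pass the filter. None of the 9 tested was called by edgeR, and their median log2 fold change was -0.37. At an unadjusted p under 0.05 there were 2 higher and 1 lower, and DESeq2 and limma-voom each called Sox8 and Ncam1, both higher. Cdh19, a cadherin of Schwann cell precursors, was at 4.78, 6.49 and 3.99 CPM in WT and 3.08, 2.82 and 3.99 in KO (log2 fold change -0.63, SE 0.24, edgeR adjusted p = 0.205), and without WT replicate 2 its log2 fold change was -0.39. Sox8, a SOX factor close to Sox10, differed in the other direction, at 2.24, 2.7 and 2.13 CPM in WT and 4.41, 4.77 and 4.16 in KO (log2 fold change 0.91, SE 0.17, edgeR adjusted p = 0.057; DESeq2 adjusted p = 3.38e-05). Ncam1, a cell adhesion molecule that chromaffin cells also carry, had a log2 fold change of 0.70 (edgeR adjusted p = 0.0682), and leaving out WT replicate 2 made both a call (edgeR adjusted p = 0.0496 for Sox8 and 0.0314 for Ncam1). Cdh2, another cadherin, was at 159 ± 4.58 and 144 ± 21.3 CPM, and Gap43, a growth cone protein, at 0.235 ± 0.182 and 0.153 ± 0.0698. Which cells of the gland made the Cdh2 RNA was not tested.

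Of the neuregulins and ErbB receptors none of 7 was called by edgeR, although 3, all higher in KO, had an unadjusted p under 0.05. The same 3, Nrg1, Nrg3 and Erbb4, had groups that did not overlap, where 16.3% of tested loci were higher without overlap. DESeq2 called these 3, limma-voom called Nrg1 and Erbb4, and edgeR with total counts alone, which called 3.15% of all loci, called Nrg1. Nrg1, the neuregulin that Schwann cells need, was at 2.18, 1.15 and 2.19 CPM in WT and 4.67, 3.79 and 3.90 in KO (log2 fold change 1.16, SE 0.29, edgeR adjusted p = 0.0925). Nrg3 (log2 fold change 0.56, edgeR adjusted p = 0.122) and the receptor gene Erbb4 (0.62, edgeR adjusted p = 0.103) were the others, and Erbb4 was called without WT replicate 2 (edgeR adjusted p = 0.0385). Erbb2, the partner with which Erbb3 signals, stood at 7.56 ± 1.34 CPM in WT and 7.53 ± 0.157 in KO. Nrg2 and Nrg4 had log2 fold changes of 0.07 and 0.21, and that of Nrg4 was -0.57 without KO replicate 3.

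The ligands of Ngfr and their Trk receptors had log2 fold changes of both signs, and none of 7 tested was called by edgeR. At an unadjusted p under 0.05 there were 2 higher and 1 lower, and DESeq2 and limma-voom each called 2 higher, with Ntrk3 among them, and 1 lower. Ntrk3, the receptor of NT-3, was at 12.6, 3.96 and 7.15 CPM in WT and 22.8, 22.1 and 19.8 in KO, without overlap (log2 fold change 1.45, SE 0.39, edgeR adjusted p = 0.111; DESeq2 adjusted p = 0.00473). With each library left out in turn its edgeR adjusted p ranged from 0.0459, without WT replicate 1, to 0.277, without WT replicate 3. Bdnf (1.30, SE 0.58), Ntf3 (-0.52, SE 0.31, and -0.29 without WT replicate 2) and Ntrk2 (0.01) did not pass either, and Ntf5 had almost no counts. Of 7 genes of the repair Schwann cells that form after nerve injury, 6 were tested and none was called by edgeR, DESeq2 or limma-voom, with 1 higher at an unadjusted p under 0.05. Jun, the factor that sets up that state in injured nerve and is present in most cells, was at 233 ± 62.6 and 165 ± 35.7 CPM. Shh was at 21.1 ± 2.49 and 27.6 ± 8.24 CPM, and Gdnf at 0.478 ± 0.168 and 0.469 ± 0.0933. In whole glands the cells that made these RNAs cannot be told apart. Olig1 had log2 fold change 2.59 (SE 0.87) from very few counts, at most 0.0697 CPM in WT.

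**Figure D4:**
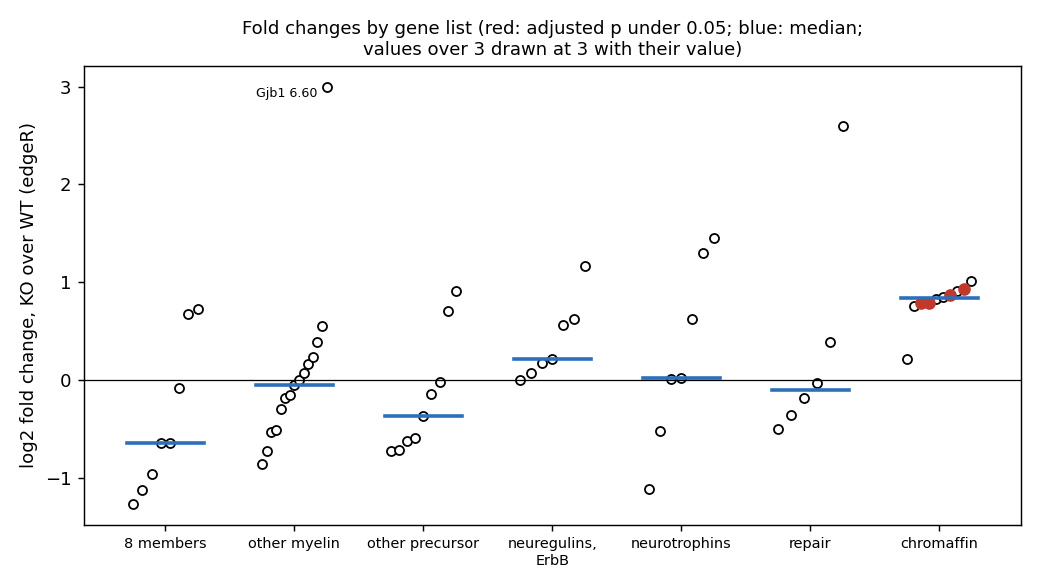
Log2 fold change, KO over WT, of each tested gene of 7 lists, with the list's median as a blue line and called genes in red. By edgeR with TMM scaling only chromaffin genes are called (4 of 10), the 8 members range from -1.27 to 0.73, and Gjb1 at 6.60 is drawn at the top edge.

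Of the 10 chromaffin markers, Dbh, Chga, Hand2 and Phox2a rose, none fell and 6 were not called, with a list median log2 fold change of 0.84. Of all loci, 1.84% were called. At an unadjusted p under 0.05, 9 were higher (12.5% of all loci), and 9 were higher without overlap (16.3%). DESeq2 called 9 (12.3% of all loci) and limma-voom 8 (7.04%), all higher. EdgeR called 7 with equal Rn7sk counts (3.33% of all loci) and 5 with total counts alone (3.15%), all higher. With WT replicate 2 left out Dbh, Chga, Hand2 and Phox2a were again called (edgeR adjusted p from 0.0209 to 0.0398), and none of them was when any other library was left out (0.0551 to 0.185). Chga, the chromogranin of secretory granules, went from 616 ± 97.2 to 1128 ± 27.3 CPM (SD, 3 libraries per group), and Th and Pnmt, which make catecholamines, had log2 fold changes of 0.75 and 0.85 (edgeR adjusted p = 0.153 and 0.0578). Other cells can carry some of the members, and their markers were summed. Fibroblast markers, which can accompany Ngfr, summed to 239 to 353 CPM in WT and 181 to 247 in KO, with Dcn, Lum, Col1a1, Col1a2 and Pdgfra at log2 fold changes of -0.73, -0.05, -0.44, -0.07 and -0.30. The 6 adipocyte markers, which can accompany S100b, summed to 151 to 255 CPM in WT and 127 to 175 in KO, with Adipoq, Plin1, Fabp4 and Cfd at log2 fold changes of 0.14, -0.38, -0.38 and 0.15. Ucp1, the uncoupling protein of brown fat, differed most, at 7.08, 2.07 and 0.71 CPM in WT and 0.0543, 0.131 and 0.193 in KO, without overlap (log2 fold change -4.68, SE 0.98, edgeR adjusted p = 0.0683; DESeq2 adjusted p = 8.15e-07). Lep, the leptin gene, was at 16.2, 1.90 and 3.69 CPM in WT and 1.25, 1.29 and 4.63 in KO (log2 fold change -1.60, SE 0.92), or -0.22 without WT replicate 1. The 6 melanocyte markers summed to 24.3 to 28.5 CPM in WT and 13.3 to 23.5 in KO, nearly all of it Mitf, while Tyr and Tyrp1 had almost no counts. The 5 endothelial markers summed to 555 to 617 CPM in WT and 391.6 to 485 in KO, with Pecam1, Cdh5, Kdr, Flt1 and Tek at log2 fold changes of -0.36, -0.39, -0.20, -0.50 and -0.51. None of the fibroblast, adipocyte, melanocyte and endothelial markers was called by edgeR or limma-voom. At an unadjusted p under 0.05, 1 fibroblast, 1 adipocyte and 4 endothelial markers were lower, and DESeq2 called 1 adipocyte marker (Ucp1) and 4 endothelial markers lower (Pecam1, Cdh5, Flt1 and Tek). With 1 library left out, log2 fold changes of Lum, Col1a2, Adipoq, Fabp4 and Cfd took both signs, and the part of such cells in the members' values was not tested.

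The genes most like Sox10 over the 6 libraries were Spic, Was and Socs7, whose centred log2 CPM differed from that of Sox10 by 0.187, 0.195 and 0.196 (root mean square, 13568 single-gene loci compared). Each had its highest value in WT replicate 2: Spic, a transcription factor of iron-recycling macrophages, stood there at 2.56 CPM against 0.898 and 1.27 in the other WT libraries. Was, a regulator of actin in blood cells, stood at 4.92 against 2.18 and 2.39, and Socs7 at 35.0 against 12.6 and 15.4. For Mbp the nearest were Brcc3, Ube2cbp and Ccdc102a, at 0.0566, 0.0899 and 0.0924. Within a distance of 0.2 there were 4 genes for Sox10 and 135 for Mbp.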

How the data were processed

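RNA from adrenal glands was sequenced as libraries that keep strand, made from 250 ng of RNA after rRNA removal, per the labels' protocols. The authors' tools, per the submitters' processing notes, were Trimmomatic, STAR, Picard, StringTie and edgeR, with GRCm38. The counting program and the versions are not named there. The deposited table holds raw read counts for 59699 loci, per the file headers, and log2 CPM and log2 values scaled to Rn7sk by the authors, which were not used here. Gene lengths are those of the deposited table.

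The 6596 loci without a name (1.39% to 2.04% of counts) were left out. Counts were filtered with filterByExpr, scaled by TMM and compared by the two-sided quasi-likelihood F test (edgeR 4.0.16 in R 4.3.3, glmQLFit set to robust), with Benjamini-Hochberg adjustment over 21358 loci; a gene was called at an adjusted p under 0.05. The SE is the log2 fold change divided by the square root of F. CPM uses TMM-scaled library sizes. Ratios of counts were tested by exact permutation. The members and gene lists were chosen with earlier results of these data known. Named were the members, Armc5, the first 4 genes of most lists and those called, and the 3 genes nearest to Sox10 and to Mbp. Cortical genes were not named. Some of the first 4 were not named in the myelin, neurotrophin, central nervous system glia, melanocyte and liver lists. Other list genes were named after their values were seen. Loci that merge a listed gene with another gene, apart from predicted genes and small RNAs, were left out of the lists. Clone, predicted and pseudogene names were left out of the nearest genes. Alternatives used RLE factors, total counts, Rn7sk counts, other filters, unnamed loci, a replicate block, left-out libraries, DESeq2 1.42.0 and limma 3.58.1. Within a group, no pair of libraries agreed within sampling noise (chi-square per degree of freedom at least 81.6). Some genes of the myelin and neurotrophin lists enter the counts and medians and are not reported here by name.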

Additional observations from a re-analysis of the deposited data

How the results depend on the processing

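No member was called in any of the edgeR and limma-voom alternatives run, and 2 were by DESeq2. The number of loci called was 672 with total counts alone, 711 with equal Rn7sk counts, 2626 by DESeq2, 1503 by limma-voom, 16 without WT replicate 1 and KO replicate 3 together, and between 15 (without KO replicate 1) and 644 (without WT replicate 2) with 1 library left out; the cause was not tested. Total counts and Rn7sk scaling moved the median log2 fold change of all loci to 0.22 and 0.19. The median of the 7 members other than Mbp, -0.65, was between -0.90 and -0.51 with 1 library left out, -0.84 without WT replicate 1 and KO replicate 3, and 0.74 under the filter of 10 CPM, where Erbb3 was the 1 of the 7 left. Sox10 turned to 0.039 without WT replicate 2. Mbp turned to 0.12, 0.096, 0.21, 0.059 and 0.031 under the alternatives given with it, and was -0.22 at its lowest, without KO replicate 1. The Mbp to Sox10 log2 difference ranged from 0.17 to 0.55 and that of Sox10 to Dbh from -1.56 to -0.88 with 1 library left out, and they were 0.59 and -1.51 from summed counts. Same-numbered libraries did not deviate together (correlations of -0.05, 0.02 and -0.12), and libraries of unlike number gave -0.075 to 0.096. With 3 libraries per group this cannot exclude that the numbers pair them. With a replicate block 5 loci were called, no member was, and the 7 members' median was -0.63. The Mbp to Sox10 difference was then 0.42 (exact sign-flip p = 0.5). That of Sox10 to Dbh was -1.28 (exact sign-flip p = 0.25, the smallest that 3 pairs can give). Low counts limit the precision of Fabp7, Foxd3 and S100b.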

Other observations

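Dct, an enzyme gene of melanocytes, had 303 counts in KO replicate 3, 2.34 CPM, and at most 9 counts in any other library. Aqp4, a water channel of astrocytes and of some epithelia, was at 0.661, 0.271 and 1.01 CPM in WT and 0.299, 0.328 and 0.587 in KO (edgeR adjusted p = 0.507).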
